A study of Mus musculus with 17 samples.

Results

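The genes described here encode the proteins of the cytosolic ribosome. They were chosen by name alone, as every symbol of the form Rpl or Rps followed by a number and at most 1 of the letters a, l, x or y, together with Rplp0, Rplp1, Rplp2 and Rpsa, and without symbols ending in -ps, which name pseudogenes. This gave 83 of the 55453 gene symbols in the expression table, 51 for the large (60S) subunit and 32 for the small (40S) subunit. All 83 were found in the GENCODE M21 annotation, 80 as protein-coding genes and 3 (Rpl32l, Rpl6l and Rps4l) as processed pseudogenes, on 19 chromosomes, with 4 genes on the X chromosome. For 80 of the 83 the mean level reached 1 TPM (transcripts per 1000000 transcripts), the minimum for a test. The others were Rpl10l, listed at 0 in every mouse, Rpl39l and Rpl3l.

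The ribosome reads mRNA on its small subunit and joins amino acids on its large subunit, and cells make its proteins in matched amounts from many unlinked genes. Their mRNAs are among the most abundant in any growing cell and usually begin with a run of C and T bases, the terminal oligopyrimidine motif, through which the mTORC1 kinase and the RNA-binding protein LARP1 set how strongly they are translated. In the developing brain, ribosome content follows the growth of neurons and their processes.

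RNA was sequenced from the cerebral cortex of 17 male C57BL/6J mice of lines changed in Hnrnph2, an X-linked gene for an RNA-binding protein. Hemizygous Hnrnph2 knockout (KO) mice (n = 3) with KO controls (n = 3), and hemizygous R206W mice (n = 3) with R206W controls (n = 3), were 8 weeks old. Hemizygous P209L mice (n = 3) and P209L controls (n = 2) were 3 weeks old. All controls were wild-type littermates of their own line, the R206W and P209L substitutions were knocked into the endogenous gene in the whole animal, and the KO allele was a frameshift that arose while the knockins were being made. Because the only 3-week mice belonged to the P209L line, age and line cannot be told apart, and every difference between ages below is also a difference between lines.

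The table held TPM, which scale each transcript to its length and each mouse to a total of 1000000, so depth is unknown and no counting error can be given. Hnrnph2 stood at 21.3 to 24.4 TPM in the KO mice and at 80.5 to 145 TPM in the KO controls. The lowest of these controls, KO control 1, stood apart: mitochondrially encoded transcripts made up 20.1% of its TPM against 10.7% to 15.4% in the other 16 mice, and its 10 most abundant genes made up 36.5% against 19.4% to 29.3%. Of the 80 tested ribosomal protein genes, 72 were higher in KO control 1 than in the mean of the other KO controls, with a median log2 difference of 0.48, while the median over all tested genes was -0.38. In bulk tissue, a lower value can come from fewer cells of a type or from less RNA per cell, and these cannot be told apart.

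Ribosomal protein mRNAs were abundant in every group. The median tested gene of the set had a mean of 417 TPM over all mice, against 15.4 TPM for the median of all genes tested. Of the 83 genes, 76 had a mean above 100 TPM and 4 had a mean above 1000 TPM. These 4 were Rps29, Rplp1, Rpl41 and Rps27, with means of 1603, 1583, 1207 and 1139 TPM, and they were the highest 4 of the set in each of the 17 mice. At the lower end, Rpl32l averaged 1.03 TPM, Rps4l 19.6 TPM and Rps27l 36.0 TPM.

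Several members have a close paralog, and the 2 copies of a pair differed widely in level. Rpl3, a core protein near the peptidyl transferase centre, averaged 530 TPM, while its muscle paralog Rpl3l lay between 0.09 and 0.74 TPM. Rpl39, a short protein of the exit tunnel, averaged 245 TPM, while Rpl39l, known from testis, lay between 0 and 1.25 TPM. Rpl10, which helps the subunits join, averaged 532 TPM, while its testis retrogene Rpl10l was listed at 0. Rps4x averaged 467 TPM beside 19.6 TPM for Rps4l. Rps27, a zinc-binding protein of the small subunit, averaged 1139 TPM beside 36.0 TPM for Rps27l, a paralog known as a p53 target.

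Promoter sequences were searched for a pyrimidine run at the start. RefSeq windows (build GRCm38.p6, from 250 bases before to 50 bases after the annotated start) were found for 61 of the 83 genes. An unbroken run of at least 8 pyrimidines (C or T) lying within 10 bases of the start was found in 29 of them (47.5%), against 16.1% of all 27025 symbols with a window. The letters CGGAAG, the core bound by ETS factors such as GABP, were found on either strand in 41 (67.2%, against 18.8% of all symbols), ATGGCG, the YY1 core, in 19 (31.1% against 10.2%) and TATAAA in 7 (11.5% against 15.7%). These letter matches describe windows around annotated starts, which were not checked in cortex, and are not evidence of binding. The sequences below cover the 30 bases before the start and the first 20 transcribed bases, 5′ to 3′, and are shown because the levels of these genes are described further on. In the first 4 the pyrimidine run is in capitals, and the last 3 hold no run of at least 8 within 10 bases of the start. The Rpl5 window holds a run of at least 8 farther upstream, which was not counted. They lie at chr3:90213629-90213678 (minus strand) for Rps27, chr4:86857348-86857397 (minus strand) for Rps6, chr7:45718041-45718090 (plus strand) for Rpl18 and chr10:128626487-128626536 (minus strand) for Rps26, and at chr10:128549149-128549198 (minus strand) for Rpl41, chr17:33824543-33824592 (minus strand) for Rps28 and chr5:107900498-107900547 (plus strand) for Rpl5.
Rps27: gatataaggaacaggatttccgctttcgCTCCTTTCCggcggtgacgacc
Rps6: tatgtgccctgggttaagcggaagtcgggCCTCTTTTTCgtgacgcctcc
Rpl18: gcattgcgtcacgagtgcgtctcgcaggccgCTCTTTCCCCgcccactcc
Rps26: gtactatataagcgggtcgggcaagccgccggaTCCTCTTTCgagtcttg
Rpl41: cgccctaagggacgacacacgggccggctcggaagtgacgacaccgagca
Rps28: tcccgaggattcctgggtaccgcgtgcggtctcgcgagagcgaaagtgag
Rpl5: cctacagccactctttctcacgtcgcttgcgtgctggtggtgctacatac

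The summed level of the 83 genes averaged 33950 ± 4010 TPM (SD, n = 12) at 8 weeks and 46644 ± 4520 TPM (SD, n = 5) at 3 weeks. It was 43386, 32922 and 28950 TPM in the KO controls, 38044, 36947 and 33032 TPM in the KO mice, 31991, 30820 and 35194 TPM in the R206W controls, and 32907, 33603 and 29610 TPM in the R206W mice. At 3 weeks it was 44573 and 42344 TPM in the P209L controls and 52697, 50126 and 43478 TPM in the P209L mice. Every 3-week mouse lay above all 8-week mice other than KO control 1, which lay above P209L control 2. The sum was 1.28 times as high in the P209L controls as in the 8-week controls, 1.36 times without KO control 1, and 1.43 times as high in the P209L mice as in the KO and R206W mice together. As a share of all TPM, it was 3.39% ± 0.402 (SD, n = 12) at 8 weeks and 4.66% ± 0.452 (SD, n = 5) at 3 weeks. Both subunits contributed, and the ratio of summed large to summed small subunit TPM stayed between 1.28 and 1.34 in all mice.

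**Figure D1:**
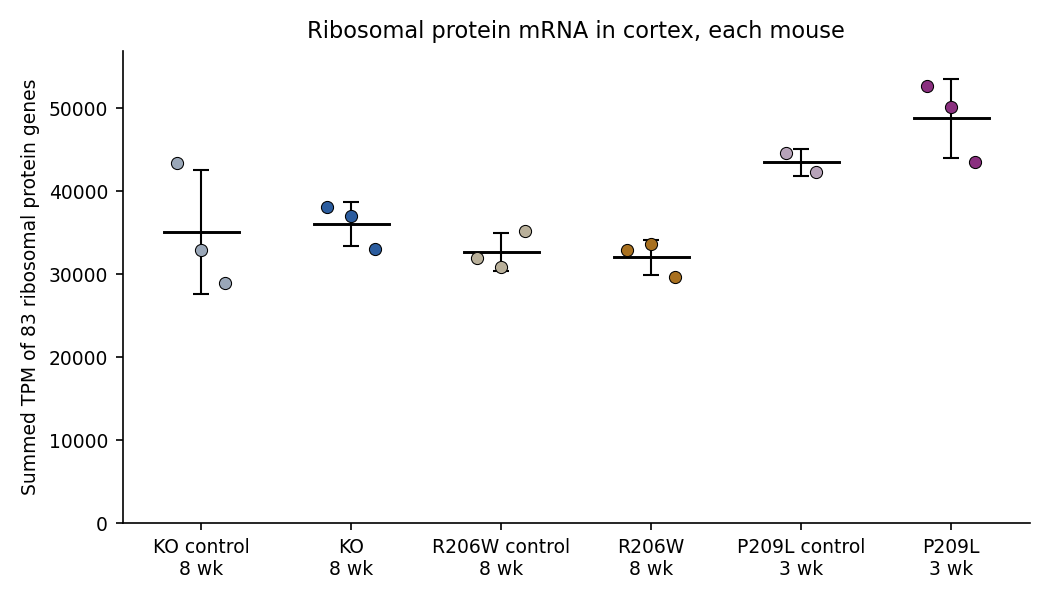
Summed TPM of the 83 ribosomal protein genes (y axis, from 0) in each mouse (points) by group and age (x axis), with the group mean (line) and SD (bars, n = 3, or n = 2 for the P209L controls). The 3-week mice lie between 42344 and 52697 TPM, and 11 of the 12 8-week mice lie at or below 38044 TPM, the other being KO control 1 at 43386 TPM.

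The first comparison asked how these genes differed between 3-week and 8-week cortex in wild-type mice, with 2 P209L controls set against 6 controls of the other lines. In limma with Benjamini-Hochberg adjustment over all 16265 genes, 36 of the 80 genes were higher at 3 weeks and 0 were lower. An unadjusted p under 0.05 in either direction was found for 46 of the 80 genes and for 7478 of all 16265. Of all genes tested, 11.3% were called higher and 24.8% lower, which is the background for these counts and no test of the set. Their median difference was 0.34 on the log2(TPM + 1) scale, a fold of 1.27, against -0.12 over all genes. The large subunit held 20 of the calls (of 48 genes) and the small subunit 16 (of 32). The count depended on single libraries: it was 56 without KO control 1, all of them higher, where 12.9% of all genes were then higher and 37.4% lower. It fell without either P209L control, which left a single control at 3 weeks. No share of all genes is given for those fits, so the fall is no result about the set.

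Rpl29, a heparin-binding protein of the large subunit, had the smallest p. It lay at 295 (lowest), 337 (median) and 387 TPM (highest) in the 12 8-week mice, at 560 and 539 TPM in the P209L controls and at 627, 593 and 584 TPM in the P209L mice. The ages did not overlap, and the difference in controls was 0.74 ± 0.0958 log2 units (SE, limma, adjusted p = 8.18e-05). Rps28, a small protein near the mRNA exit channel, lay at 431 (lowest), 504 (median) and 651 TPM (highest) at 8 weeks. At 3 weeks it lay at 858 and 811 TPM in the controls and at 977, 965 and 861 TPM in the P209L mice, again with no overlap, and its difference in controls was 0.80 ± 0.114 (SE, limma, adjusted p = 0.000148).

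Rpl41 encodes a very short basic peptide that bridges the subunits, and it showed the largest difference of the set in the controls. It lay at 742 (lowest), 919 (median) and 1313 TPM (highest, KO control 1) in the 8-week mice. It reached 1787 and 1712 TPM in the P209L controls and 2057, 2012 and 1561 TPM in the P209L mice, so that every 3-week mouse exceeded KO control 1. The difference in controls was 0.93 ± 0.156 (SE, limma, adjusted p = 0.00047), a fold of 1.91. Rpl27 lay between 202 and 250 TPM at 8 weeks and between 325 and 386 TPM at 3 weeks, and differed by 0.59 in controls (limma, adjusted p = 0.000273). Rpl18 lay between 186 and 249 TPM at 8 weeks and between 298 and 345 TPM at 3 weeks, and differed by 0.52 (limma, adjusted p = 0.000579). Of the 80 genes, 27 (33.8%) were higher in every 3-week mouse than in every 8-week mouse and 1 was lower in every one, where 6.49% of all genes tested were higher and 10.2% lower in that way.

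**Figure D2:**
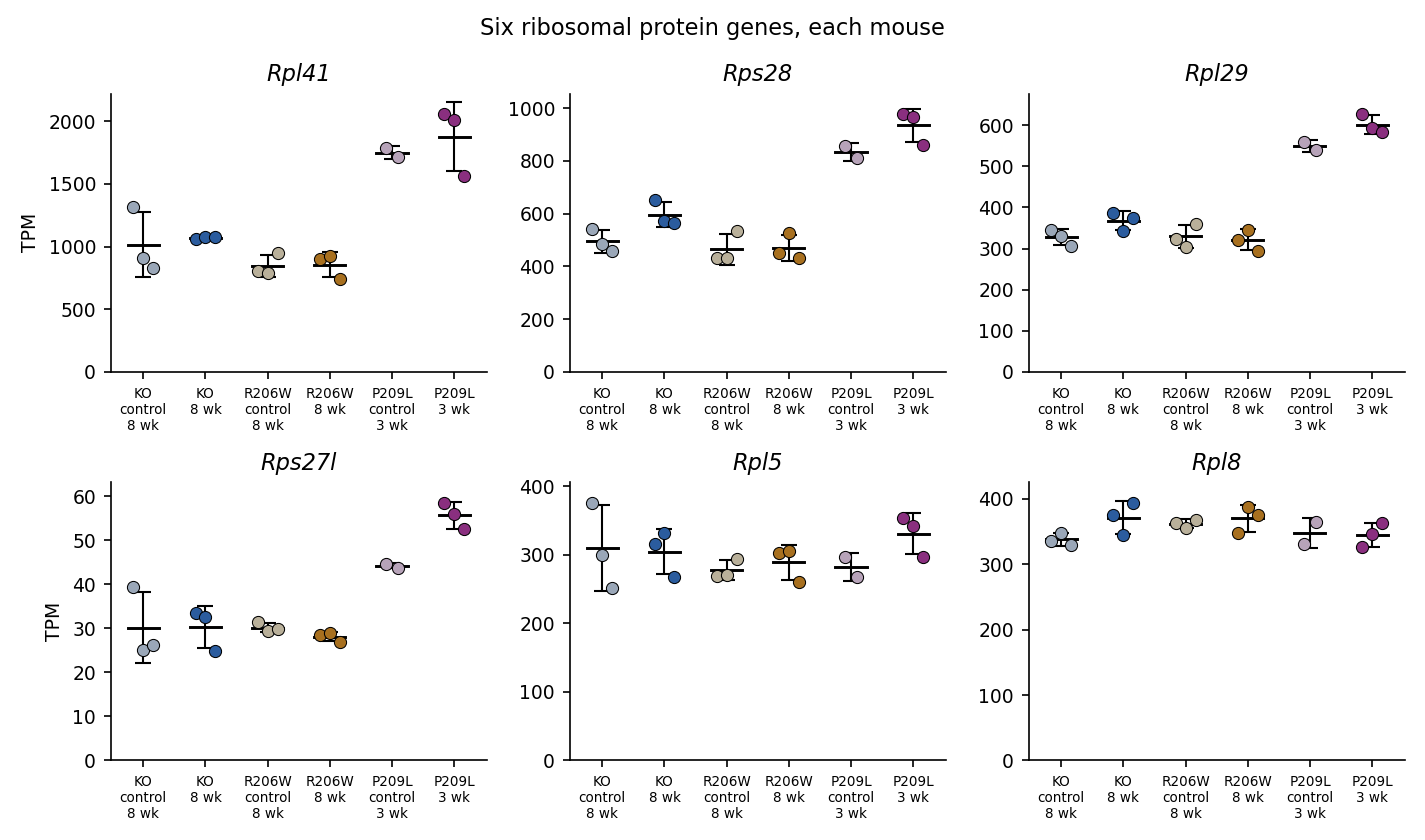
TPM (y axes, from 0) of 6 ribosomal protein genes in each mouse (points) by group and age, with group means (lines) and SD (bars). Rpl41, Rps28, Rpl29 and Rps27l lie higher in all 5 3-week mice than in any 8-week mouse, and the ages overlap for Rpl5 and Rpl8.

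The second comparison set 3 P209L mice against 3 KO and 3 R206W mice, none of them shared with the first comparison. Here age, line and allele are the same split and cannot be told apart. By limma, 68 of the 80 genes were higher at 3 weeks and 1 was lower, where 13.9% of all genes were called higher and 32.1% lower. The median difference was 0.49 against -0.16 over all genes. Of the 36 genes higher in controls, 35 (97.2%) were also higher in mutants, and these were 51.5% of the 68. The only one called in controls alone was Rpl28, a large subunit protein, which differed by 0.50 ± 0.136 in controls (SE, limma, adjusted p = 0.0104) and by 0.24 ± 0.117 in mutants (SE, limma, adjusted p = 0.109). Across the 80 genes the 2 sets of differences had a Pearson r of 0.83 and a Spearman rho of 0.82, given as a description, since the genes share libraries and scaling.

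The genes with the largest differences in mutants came from both subunits. Rpl39 lay at 146 (lowest), 197 (median) and 294 TPM (highest, KO control 1) in the 8-week mice and at 414, 383 and 338 TPM in the P209L mice. The P209L controls lay at 327 and 292 TPM, the lower of them below KO control 1. Rpl39 differed by 0.98 ± 0.161 in mutants (SE, limma, adjusted p = 0.000262) and by 0.58 ± 0.186 in controls (SE, limma, adjusted p = 0.0251), a call lost without either P209L control (limma, adjusted p = 0.187 and 0.0862). Rps27l lay at 24.9 (lowest), 29.1 (median) and 39.4 TPM (highest) at 8 weeks, at 44.6 and 43.8 TPM in the P209L controls and at 58.6, 56.0 and 52.5 TPM in the P209L mice. All 5 3-week mice were above all 8-week mice, and the differences were 0.91 in mutants (limma, adjusted p = 7.77e-05) and 0.55 in controls (limma, adjusted p = 0.00962), where the call was lost without either P209L control (limma, adjusted p = 0.0797 and 0.0697). Its abundant paralog Rps27 differed by 0.63 in mutants (limma, adjusted p = 0.00272) and by 0.35 in controls, which did not pass (limma, adjusted p = 0.113) but passed without KO control 1, at 0.47 (limma, adjusted p = 0.00599). In 72 of the 80 genes the difference was larger in mutants than in controls, where it was in 7543 of all 16265. The median of this gap was 0.17, against -0.02 over all genes, and without KO control 1 it was 0.09 against 0.04. By construction the gap is the P209L effect minus the mean of the KO and R206W effects. No gene of the set passed a test of the gap (limma, 0 called and 0 at an unadjusted p under 0.05, where 0.0184% of all genes were called).

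**Figure D3:**
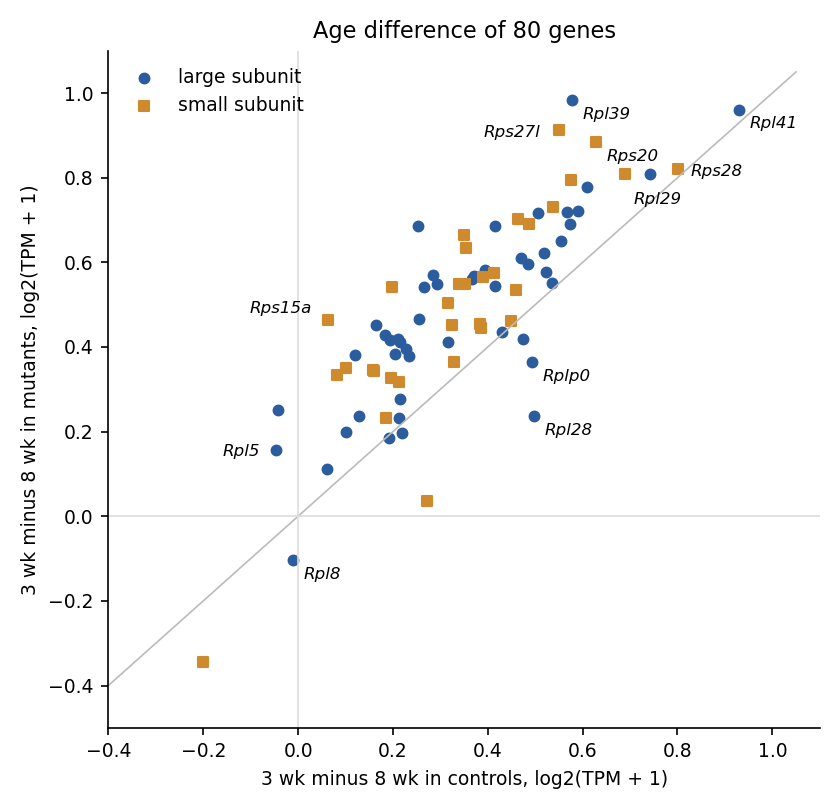
Difference between 3-week and 8-week mice in log2(TPM + 1) for the 80 tested genes, in controls (x axis) and in mutants (y axis), with large subunit genes as circles and small subunit genes as squares and the line of equal values in grey. Most genes lie above the line, with Rpl41 at 0.93 and 0.96, Rpl39 at 0.58 and 0.98, and Rpl28, below it, at 0.50 and 0.24.

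A few genes did not follow the set, and Rpl8 and Rpl30 are named because of their values. Rpl5 and Rpl11 bind 5S ribosomal RNA together and, when free, can restrain the p53 regulator MDM2. Rpl5 lay at 252 (lowest), 297 (median) and 376 TPM (highest) at 8 weeks, at 297 and 268 TPM in the P209L controls and at 353, 342 and 297 TPM in the P209L mice. The ages overlapped, and the difference in controls was -0.05 with an adjusted p of 0.817 by limma. Rpl11 lay at 428 and 386 TPM in the P209L controls and 488, 480 and 410 TPM in the P209L mice, all above the 8-week range of 228 to 371 TPM, and differed by 0.57 in controls (limma, adjusted p = 0.0092) and 0.72 in mutants (limma, adjusted p = 0.000545). Rpl8, which lies close to the peptidyl transferase centre, ranged from 330 to 394 TPM at 8 weeks and from 326 to 364 TPM at 3 weeks, and differed by -0.01 in controls and -0.10 in mutants. Rpl30 ranged from 474 to 822 TPM and from 540 to 739 TPM, and differed by -0.04 and 0.25. Neither Rpl8 nor Rpl30 was called in either comparison, and the sign in controls of Rpl5, Rpl8 and Rpl30 turned under some settings.

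By role, the P-stalk proteins, which recruit elongation factors to the large subunit, were all higher at 3 weeks in both comparisons. In controls Rplp0 differed by 0.49 (limma, adjusted p = 0.00135), Rplp1 by 0.53 (limma, adjusted p = 0.0211) and Rplp2 by 0.47 (limma, adjusted p = 0.00318). Rpsa, a small subunit protein that shares its gene with a laminin receptor, lay at 445 to 645 TPM at 8 weeks and at 635 to 822 TPM at 3 weeks, and differed by 0.39 in controls (limma, adjusted p = 0.0273). Rps6, the substrate of S6 kinase, lay at 305 to 383 TPM at 8 weeks and at 379 to 438 TPM at 3 weeks; it differed by 0.33 in mutants (limma, adjusted p = 0.00483) and by 0.20 in controls, which did not pass (limma, adjusted p = 0.121).

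Rps19, Rps26, Rpl35a and Rps24 are, with Rpl5 and Rpl11, among the genes mutated in Diamond-Blackfan anemia, an inherited failure of red cell production. Rps19 and Rps26 were higher in both comparisons. Rps26 lay at 193 to 289 TPM at 8 weeks and 341 to 452 TPM at 3 weeks, and differed by 0.58 in controls (limma, adjusted p = 0.00489) and 0.80 in mutants (limma, adjusted p = 0.000132). Rpl35a passed in mutants, at 0.54 (limma, adjusted p = 0.0085), but not without P209L replicate 1 (limma, adjusted p = 0.0555), and in controls it passed when KO control 1 was left out, at 0.38 (limma, adjusted p = 0.0188). Rps24 passed in neither, at 0.16 in controls and 0.34 in mutants, but in mutants it passed with the replicate block, with sample weights and in a fit on the compared groups alone (limma, adjusted p = 0.0206, 0.0125 and 0.0332). In controls the calls of Rps19, Rpsa and Rplp1 were lost in 11, 8 and 6 of 20 alternatives, among them leaving out either P209L control. Those of Rpl39, Rps27l and Rpl11 were lost in 4, 2 and 2, and those of Rplp2 and Rps26 in 1 each. Rpl38, known for its part in the translation of Hox mRNAs, differed by 0.37 in controls (limma, adjusted p = 0.0623) and by 0.56 in mutants (limma, adjusted p = 0.00247). Rpl13a, also part of an interferon-induced complex that silences translation, differed by 0.41 in controls (limma, adjusted p = 0.0598) and 0.54 in mutants (limma, adjusted p = 0.00607). Without KO control 1, the differences in controls of Rpl38 and Rpl13a were 0.47 and 0.54 and both passed (limma, adjusted p = 0.00102 and 0.000583). Rpl22, an RNA-binding protein with its own paralog, differed by 0.12 in controls (limma, adjusted p = 0.53) and by 0.38 in mutants (limma, adjusted p = 0.0191). The call in mutants was lost without P209L replicate 1 and without replicate 2 (limma, adjusted p = 0.0972 and 0.0568).

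Transcript length moved with the difference between ages over the whole table. The tested ribosomal protein genes were short, with a median transcript length of 704 bases against 1936 bases for all tested genes. In controls, the median difference of all genes was 0.04 for lengths up to 500 bases, 0.11 from 500 to 700 bases and 0.09 from 700 to 1000 bases, and it was -0.41 above 4000 bases. In the same 3 bins of shorter genes the ribosomal protein genes had medians of 0.41 (n = 15), 0.46 (n = 25) and 0.30 (n = 26). Among them, length and difference had a Spearman rho of -0.36 in controls and -0.43 in mutants, given as a description. After a trend on length and GC content was removed within each mouse, 21 of the 80 genes were higher in controls and 1 was lower, where 22.6% of all genes were higher and 21.9% lower, so the share called higher was close to that of all genes. The median was then 0.27 against 0.02 over all genes. In mutants 58 were higher and 1 was lower, where 27.5% of all genes were higher and 25.3% lower. The only member from 2500 to 4000 bases, Rps20, differed by 0.63.

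**Figure D4:**
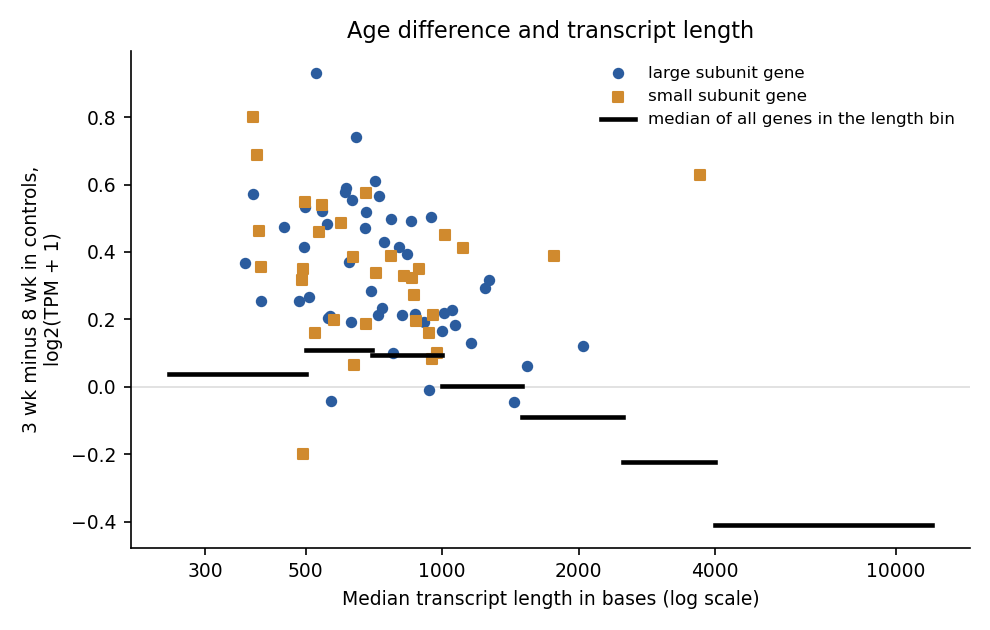
Difference between 3-week and 8-week controls in log2(TPM + 1) (y axis) against the median transcript length of each gene in bases (x axis, log scale) for the 80 ribosomal protein genes (points) and as the median of all tested genes within length bins (black lines). Of the 15 members up to 500 bases the median is 0.41, where all genes of that length have a median of 0.04.

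Scaling moved the medians of both age comparisons without turning their sign for the ribosomal protein genes. With size factors from medians of ratios, the median over all genes went from -0.12 to 2.05e-05 in controls and from -0.16 to 0.0036 in mutants, and the median of the ribosomal protein genes went from 0.34 to 0.49 and from 0.49 to 0.67. Cell-type markers moved with age as well. The 5 blood markers summed to 560 to 1323 TPM at 8 weeks and 1905 to 4884 TPM at 3 weeks, and 5 of 5 were called higher in controls. The 6 neuron markers summed to 2862 to 5040 TPM at 8 weeks, lowest in KO control 1, and to 2607 to 3059 TPM at 3 weeks, and the 5 astrocyte markers to 464 to 713 TPM and 334 to 573 TPM. The 6 oligodendrocyte markers summed to 2570 to 3843 TPM and 2401 to 5928 TPM, with 4 of 6 called higher in controls (median 0.67) and a median of -0.16 in mutants. The 5 microglia markers summed to 165 to 265 TPM and 128 to 178 TPM, with 3 of 5 called lower in controls. Ribosomal RNA genes held 2.00% to 2.71% of TPM at 3 weeks, 2.14% in KO control 1 and 1.14% to 1.5% in the other 8-week mice. One P209L control, replicate 2, held 1763 TPM of the 3 choroid plexus markers, where all other mice held at most 25.6 TPM. The part of length, scaling, cell types and ribosomal RNA in the difference of the ribosomal protein genes was not tested beyond these values.

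Other gene lists are given beside the 11.3% of all genes called higher and 24.8% called lower in controls and their median of -0.12. Among 8 core ribosomal proteins that the naming rule leaves out, 4 were higher in controls and 0 were lower, with a median of 0.36. Fau, whose product yields a small subunit protein, differed by 0.60 (limma, adjusted p = 0.000587). Of 18 other genes with terminal oligopyrimidine mRNAs, translation factors among them, 0 were higher and 5 were lower in controls, with a median of -0.11. The share called lower and the median were near those of all genes, and 6 of the 18 had an unadjusted p under 0.05. With size factors their median was 0.03, of the other sign. Eef2, the elongation factor that moves the ribosome along the mRNA, differed by -0.44 in controls (limma, adjusted p = 0.0414) and by -0.74 in mutants (limma, adjusted p = 0.000687). In mutants 4 of the 18 were higher and 6 were lower, where 13.9% of all genes were called higher and 32.1% lower. The share called lower was again near that of all genes.

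Of 40 ribosome biogenesis genes, 5 were higher and 11 lower in controls, with a median of -0.16, again near those of all genes, and with length and GC trends removed 9 were higher and 7 lower. Of 19 genes of mTORC1 and of regulators of oligopyrimidine mRNAs, 1 was higher and 7 were lower, with a median of -0.28. With size factors this median was -0.14. With length and GC trends removed it was -0.10, with 4 higher and 7 lower, where 22.6% of all genes were higher and 21.9% lower. Larp1, which binds oligopyrimidine mRNAs, differed by -0.77 (limma, adjusted p = 0.00529) and Mtor, the kinase, by -0.72 (limma, adjusted p = 0.0297). Of 10 tested transcription factors of ribosomal protein promoters, 0 were higher and 5 were lower in controls. 2 lists from the mitochondrion had medians of the same sign as the set. Mitochondrial ribosomal proteins had 31 higher and 1 lower of 78, with a median of 0.24, and nuclear-encoded respiratory chain subunits 43 higher and 1 lower of 76, with a median of 0.39. With length and GC trends removed, the mitochondrial ribosomal proteins had 39 higher and 0 lower and the respiratory chain subunits 40 higher and 2 lower. In that setting 22.6% of all genes were higher and 21.9% lower. The 7 host genes of small nucleolar RNAs had 6 higher and 0 lower, with a median of 0.45, among them Snhg8 at 1.03 (limma, adjusted p = 0.000686).

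The pyrimidine run at the start was set beside the difference between ages. The 29 tested genes with a run had a median of 0.33 in controls and the 29 tested genes with a shorter run had a median of 0.38. Among the windows printed above, Rpl41, Rps28 and Rpl5 have no such run within 10 bases of the start, though Rpl5 has one farther upstream. The differences of these 3 genes, 0.93, 0.80 and -0.05, spanned nearly the whole range of the set. Rps27, Rps6, Rpl18 and Rps26, each with a run, differed by 0.35, 0.20, 0.52 and 0.58.

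The KO comparison asked whether loss of Hnrnph2 changed these genes at 8 weeks. By limma 0 of the 80 genes were called and 1 had an unadjusted p under 0.05, where 0.00615% of all genes were called. The median difference was 0.05, against 0.06 over all genes, and with size factors it was -0.02. Of the 80 differences 56 were positive, where 10942 of all 16265 were. Without KO control 1 the median was 0.19, against -0.06 over all genes, and 0 genes of the set were called. With each mouse weighted by its residual spread, which gave KO control 1 a weight of 0.0744, 21 genes were higher and 0 were lower, where 4.16% of all genes were then higher and 13% lower. Rps28 had the smallest p: it lay at 543, 483 and 459 TPM in the KO controls and at 651, 573 and 566 TPM in the KO mice, with no overlap, and differed by 0.27 ± 0.114 (SE, limma, adjusted p = 0.999). Rpl18 and Rplp0 also did not overlap between the groups, at 0.18 and 0.20. These were 3 of the 80 genes (3.75%) with every KO mouse above every control, where 5.43% of all genes were. Rpl36a lies 13116 bases upstream of Hnrnph2 on the X chromosome (GENCODE M21, positions 134585654 to 134588062, plus strand). It lay at 425, 266 and 227 TPM in the KO controls and at 310, 308 and 236 TPM in the KO mice, and differed by -0.06 ± 0.183 (SE, limma, adjusted p = 0.999).

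The R206W comparison likewise gave 0 calls by limma, with 0 genes at an unadjusted p under 0.05, where 0.0369% of all genes were called. The median was -0.03 and the values ran from -0.23 to 0.14. Rplp2 had the smallest p and lay at 233, 214 and 240 TPM in the R206W controls and at 248, 260 and 250 TPM in the R206W mice, with a difference of 0.14 ± 0.106 (SE, limma, adjusted p = 1). None of the 80 genes passed a test of the KO effect against the R206W effect (limma, 0 called, 1 at an unadjusted p under 0.05, 0.0307% of all genes called). None passed between the R206W controls and the KO controls either (limma, 0 called, 1 at an unadjusted p under 0.05, 0% of all genes called). The 95% intervals of single genes in the KO and R206W comparisons had a median half-width of 0.29 log2 units, so smaller differences could not be resolved.

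In the P209L comparison, at 3 weeks, 0 of the 80 genes were called by limma and 0 had an unadjusted p under 0.05, where 0.0984% of all genes were called. The median difference was 0.17, a fold of 1.12, against 0.02 over all genes. Of the 80 differences 74 were positive, where 8696 of all 16265 were. In 29 genes (36.2%) every P209L mouse was above both controls, where 14.2% of all genes were. Rps27l had the smallest p, at 44.6 and 43.8 TPM in the controls and 58.6, 56.0 and 52.5 TPM in the P209L mice, with a difference of 0.33 ± 0.165 (SE, limma, adjusted p = 0.712). Rps3, a small subunit protein at the mRNA entry site with a role in DNA repair, lay at 415 and 388 TPM and at 529, 485 and 460 TPM, and differed by 0.29 (limma, adjusted p = 0.739). Rpl15 lay at 323 and 294 TPM and at 375, 378 and 325 TPM, and differed by 0.22 (limma, adjusted p = 0.764). Rpl28 ran the other way, at 245 and 285 TPM in the controls and 237, 235 and 239 TPM in the P209L mice, with a difference of -0.15.

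The members share a library in each mouse, so the 74 positive differences are not independent of each other. The ratio of large to small subunit TPM was 1.32 and 1.33 in the P209L controls and 1.28, 1.29 and 1.28 in the P209L mice, with no overlap. In the 8-week mice it ran from 1.29 to 1.34, lowest in the wild-type KO control 1, so a low ratio was not particular to P209L mice. Oligodendrocyte markers moved between the same groups: the 6 markers summed to 3964 to 5928 TPM in the P209L controls and 2401 to 3460 TPM in the P209L mice, 6 of 6 differences were negative at an unadjusted p under 0.05, and none was called. The 8 skeletal muscle markers, of which 3 never reached 1 TPM, summed to 109 to 114 TPM in the controls and to 45.3 to 59.1 TPM in the P209L mice. Of the 4 that were tested, 2 were called lower (limma, lowest adjusted p = 0.0188) and 1 had a positive difference, of 0.31. Over all 16265 genes, 3 were called lower. All 5 blood markers had negative differences, with a median of -0.68, as did the 4 endothelial markers, with a median of -0.31, and none was called. The 2 tested choroid plexus markers had a median of -2.69, where P209L control 2 alone held 1763 TPM of these markers. The part of all these marker differences in the values of the ribosomal protein genes was not tested.

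**Figure D5:**
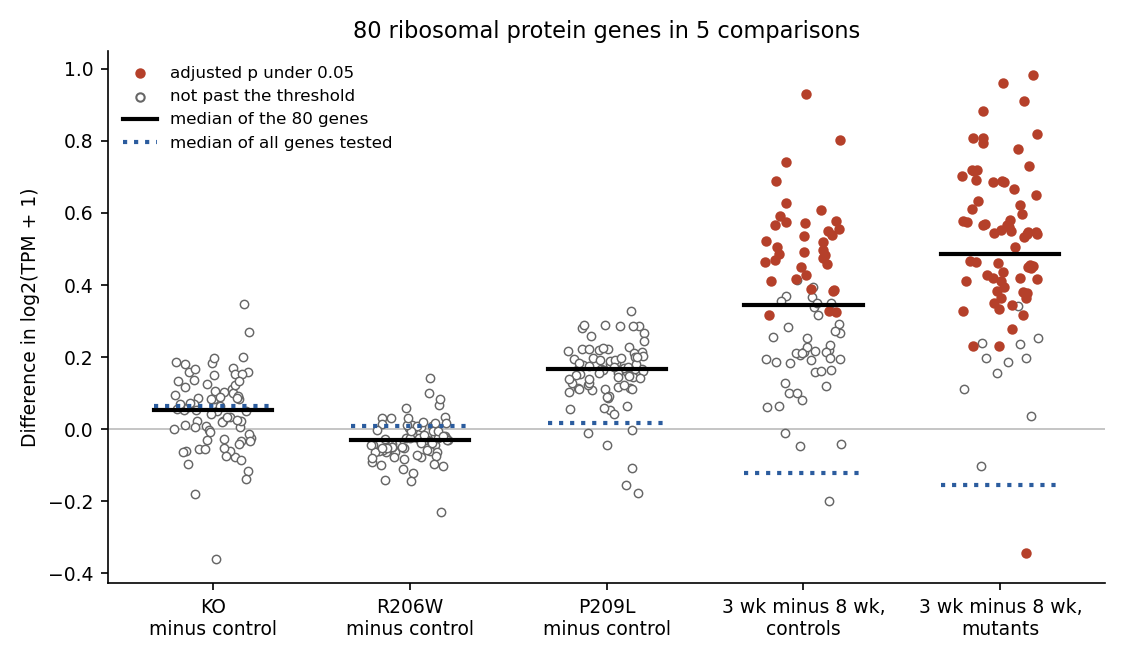
Differences in log2(TPM + 1) (y axis) of the 80 tested genes (points) in 5 comparisons (x axis), filled where the adjusted p was under 0.05, with the median of the 80 genes (solid line) and of all tested genes (dotted line). No gene is filled in the 3 genotype comparisons, where the medians are 0.05, -0.03 and 0.17, against 36 filled in the controls and 69 in the mutants of the age comparisons.

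Reads of ribosomal protein genes can be shared with processed copies elsewhere in the genome. The table listed 305 symbols ending in -ps for 60 of the 83 genes, of which 99 were tested. Their summed TPM was 7.29% to 7.91% of that of the ribosomal protein genes in every mouse, and over the 60 genes with a listed copy, the copies held a median of 4.65% as much TPM as the gene itself. Rpl36a had 4 copies with 64.3% of its own TPM, Rpl27 3 copies with 38.1%, and Rpl38 2 copies with 34.8%, so that the levels of these genes depend on how reads were divided. Rps28, Rpl41, Rps27l, Rps20 and Rpl11 had no listed copy. Of the 99 pseudogenes, 30 were higher and 1 was lower in 3-week controls, where 11.3% of all genes were higher and 24.8% lower. Their median was 0.32, against -0.12 over all genes. With length and GC trends removed, 22 were higher and 2 lower, where 22.6% of all genes were higher and 21.9% lower.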

How the data were processed

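Cortex RNA of 17 mice was sequenced by the submitters from stranded total RNA libraries (TruSeq). Per the labels, their processing notes name Trim Galore, STAR 2.7.1a, GATK 4.0.4.0 and RSEM and the build mm10, and the authors deposited TPM by gene symbol. The annotation they used is not given in the sources used here. TPM keep no depth, so precision rests on the spread between mice. RSEM divides reads shared by near-identical copies by estimate, which can move TPM between ribosomal protein genes and their pseudogenes.

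Repeated symbols (120) were summed. Genes with a mean of at least 1 TPM (16265) were analysed as log2(TPM + 1) in limma 3.58.1 (R 4.3.3), with 1 fit of 6 group means and eBayes with an intensity trend, two-sided, adjusted by Benjamini-Hochberg over all genes at 0.05. All groups thus shared an estimate of spread. Replicates are separate mice. The fit was tested on simulated data.

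The ribosomal protein genes, the other gene lists and the named genes were chosen with earlier results of these data known. Named were the 5 genes with the smallest p in each comparison (3 where none passed), the 3 highest and 3 lowest, and genes with set roles. Rpl8, Rpl30, Rpl41, Rps20, Rpl28 and genes outside the set were added after their values were seen. Some genes are not reported here by name. The contrast of the age differences between mutants and controls was also added after seeing the data. Coordinates and lengths came from GENCODE M21. Alternatives were other pseudocounts and filters, other scalings, removal of length and GC trends or of mitochondrial genes, sample weights, a fit on fewer groups, a replicate block, and leaving out each mouse.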

Additional observations from a re-analysis of the deposited data

How the results depend on the processing

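The count of ribosomal protein genes called between ages in controls, 36, was 22 (21 higher, 1 lower) once length and GC trends were taken out, 65 (64 higher, 1 lower) with sample weights, 18 in a fit on the compared groups alone, and 13 to 56 when 1 mouse was left out. With sample weights 21 genes were called in the KO comparison, where 4.16% of all genes were higher and 13% lower. With the same weights 1 was called where the KO effect was set against the R206W effect, with no share of all genes given. The default weighting did not converge on these data, so a gene-by-gene method was used, a choice made after the counts of both had been seen. The cause of these shifts was not tested. The count in mutants, 69, and the counts of 0 in the other comparisons stayed within 1.5 times under all other alternatives. Summed TPM without mitochondrial genes were 42155 in KO, 37479 in R206W control, 36678 in R206W, 50306 in P209L control and 56287 in P209L mice, and with size factors 29662 in R206W and 46957 in P209L control mice.

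Signs turned only for genes that were not called. Between ages in controls, Rpl5 became 0.095 with size factors and 0.0545 without length and GC trends, Rpl8 became 0.131 with size factors and 0.00747 with the replicate block, and Rpl30 became 0.0991 with size factors and 0.0371 with sample weights. With 1 mouse left out, Rpl5 ran from -0.1202 to 0.0294, Rpl8 from -0.0777 to 0.0577 and Rpl30 from -0.1274 to 0.0711 in controls, and Rps4l from -0.184 to 0.209 in mutants. In mutants Rpl8 became 0.0812 with size factors, and between the control groups Rpl27 became -0.0116 with size factors.

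Same-numbered mice shared only a number: correlations of their deviations from group means were 0.12, -0.06 and 0.33 in the KO line, -0.03, -0.03 and -0.11 in the R206W line and 0.08 and 0.0028 in the P209L line. With the replicate number as a block no count of called genes of the set moved by over 1.5 times.

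Precision is limited by the number of P209L controls, 2, and by unknown depth. For the genes named in the text, 1620 values under the alternatives kept their sign and their side of the threshold, 27 newly passed, 62 no longer passed and 17 changed sign.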
